A study of Homo sapiens with 32 samples.

Results

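The comparison described here sets human granulosa cells kept in 1 µM PFOS for 12 weeks against the same cultures at 6 weeks. The libraries were chosen by their labels alone. They number 4 at each time, 8 of the 32 libraries of the series. The cells were HGrC1, an immortalized, non-luteinized human granulosa line, so every library derives from 1 line. PFOS, perfluorooctane sulfonate, is a persistent perfluorinated surfactant. Its binding to serum proteins is well known. RNA was read as stranded poly(A) libraries, and the counts per gene were estimates by RSEM.

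Each replicate began as a separately frozen vial of HGrC1, and the cells of each vial were split into a vehicle control (0.05% DMSO) and 0.01, 0.1 and 1 µM PFOS. All groups grew in medium with 10% serum and an added steroid, which the labels give as 100 nM estradiol and the study's methods as testosterone. PFOS was renewed at each passage and cells were subcultured every few days. The 1 µM groups at 6 weeks and at 12 weeks therefore hold the same 4 vials at an earlier and a later passage. Weeks of exposure, passage number and the time of harvest cannot be told apart within 1 µM. The control cultures, followed over the same weeks, are given for that reason beside the main results.

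Granulosa cells surround the oocyte and turn androgens into estrogens. They also secrete peptides of the transforming growth factor family, lay down basement membrane, and sense cytokines. Steroid synthesis from cholesterol begins with cleavage of its side chain. Several nuclear and stress sensors govern sets of genes that are commonly read as pathways, among them the aryl hydrocarbon receptor (AHR), NRF2, interferon signaling and the integrated stress response.

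Total counts in the 8 libraries lay between 17944140 and 18270674. Genes with at least 1 count numbered 14911 to 14960 at 6 weeks and 14710 to 14792 at 12 weeks, without overlap (exact two-sided permutation p = 0.0286, the smallest that 4 against 4 can give). Within 1 µM at 12 weeks, replicates 1 and 2 stood apart from replicates 3 and 4. Set against counting noise by chi-square over its degrees of freedom, libraries differed by 2.80 within the first pair and 3.08 within the second, but by 7.86 to 9.66 across the pairs. For the lists described in most detail, and where a count moved by over 1.5 times, counts of members are also given without replicates 3 and 4 and without replicates 1 and 2 of the 12-week group. These alternatives were added after the data were seen. The share of counts from mitochondrial-genome genes was 5.56% to 6.77% at 6 weeks and 4.40% to 5.75% at 12 weeks (exact permutation p = 0.114).

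The granulosa label was checked against its markers. AMH, the anti-Müllerian hormone, had 191 to 319 counts in the 8 libraries, and FOXL2, a transcription factor of the granulosa fate, had 10 to 29 counts. GATA4 and WT1 were well above these. Other defining markers were missing or nearly so. CYP19A1, the aromatase, had 0 counts in all 8 libraries, which allows up to 3 in each, and AMHR2 had 0 or 1. FSHR had no values. The intervals and limits given here cover counting error only. Of the 15 members of the granulosa list that were tested, 2 rose, 4 fell and 9 did not pass, with a median log2 fold change of -0.11. Over all tested genes 14.6% were higher and 16.6% lower. The lower count was 2 without 12-week replicate 1, 2 or 3 or 6-week replicate 2 or 3, and 1 without 6-week replicate 1. The higher count was 1 without 12-week replicate 3 or 4 or 6-week replicate 2 or 3. AMH was among the higher members (0.30) and GATA4 among the lower (-0.22), and the call of AMH was lost without each library that lowered the higher count, and that of GATA4 without 12-week replicate 1 or 2 or 6-week replicate 1, 3 or 4. In bulk RNA, fewer cells of a type and less RNA per cell cannot be told apart.

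Genes of other tissues were read the same way. The theca gene CYP17A1, the endothelial genes CLDN5 and ERG, the immune genes CD163 and CD3E, and the germ-cell genes BMP15, DAZL and DDX4 were at 0 in all 8 libraries. The summed level of 7 endothelial markers was 3.97 to 4.46 TPM at 6 weeks and 2.29 to 3.08 TPM at 12 weeks. All 4 tested endothelial members fell, led by PECAM1 with 74 counts in all at 6 weeks and 8 at 12 weeks, a ratio of 9.32 (95% counting interval 4.49 to 22.4). The 8 immune markers summed to 31.3 to 41.0 TPM and then to 18.8 to 28.6 TPM, with CD14 and CD68 lower and PTPRC at 0 to 6 counts. Stromal markers summed to 1110 to 1310 TPM and 1310 to 1370 TPM, epithelial markers to 3170 to 3300 TPM and 2960 to 3210 TPM, and oocyte markers to 24.4 to 29.9 TPM and 30.6 to 33.1 TPM. Theca and luteal markers summed to 2.58 to 2.85 TPM at 6 weeks and 2.91 to 3.67 TPM at 12 weeks, without overlap, and 1 of the 2 tested members rose. Transcripts of liver were present at both times. The sum of 6 of them (ALB, AFP, AHSG, APOB, GPC3 and AMBP) was 88, 112, 115 and 105 counts at 6 weeks and 167, 92, 122 and 174 counts at 12 weeks (exact permutation p = 0.2), and 0 of the 7 tested liver markers passed. The part of these markers in the results below was not tested.

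Of 12655 genes tested, 1850 were higher at 12 weeks and 2106 lower at an adjusted p of 0.05 or less (edgeR quasi-likelihood test), which are 14.6% and 16.6% of the genes tested. Most changes were small, with a median log2 fold change of 0.23 among the higher genes and -0.31 among the lower. Differentially expressed genes (DEGs), defined by the same adjusted p and a change of at least 2-fold, numbered 36 higher (0.284% of the genes tested) and 306 lower (2.42%). Lower genes thus made up 89.5% of DEGs but 53.2% of all genes that passed. A change of 4-fold or more was seen for 53 lower and 4 higher genes. The median change over all tested genes was 0.005 on the log2 scale. CPM are counts scaled to the total count of each library. The groups did not overlap in CPM for 293 of the 306 lower and 31 of the 36 higher DEGs, against 30.8% of all genes tested. DEGs were mostly weakly expressed, with a median at 6 weeks of 3.73 CPM for the lower and 0.844 CPM for the higher DEGs and of 31.3 CPM over all tested genes. Only 1 higher DEG reached 10 CPM at 6 weeks, but 81 lower DEGs did.

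The count of DEGs moved with the filter on low counts. When every library had to hold at least 10 counts, 22 higher and 189 lower DEGs were left. Without the filter on low counts there were 61 and 419. With the vial as a block in the fit, the counts were 36 and 307.

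ALDH1A1, which oxidizes retinal to retinoic acid (chromosome 9, 72900671 to 72953053, minus strand, GRCh38.p14), had 7.81, 4.36, 6.7 and 6.63 CPM at 6 weeks and 3 counts in every library at 12 weeks. Pooled over libraries this is 460 against 12 counts, a ratio of 38.6 (95% counting interval 21.9 to 75.3), with an adjusted p of 1e-08. ISL1, a LIM-homeobox transcription factor, moved almost as far, from 329 counts to 9 (ratio 36.8, interval 19.2 to 81.3). ISL1 had too few counts for the rule on named genes and was singled out after its values were seen. CEMIP, which takes part in hyaluronan breakdown (chromosome 15, 80779370 to 80951771), fell from 101, 79.6, 96.2 and 74.5 CPM to 15.2, 11.6, 6.72 and 5.01 CPM, a log2 fold change of -3.20 ± 0.29 (SE, adjusted p = 0.000397). Even the highest 12-week library of CEMIP lay far under the lowest at 6 weeks.

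SLPI, a secreted inhibitor of leukocyte proteases, was the most variable of the group. It measured 171, 59.5, 191 and 125 CPM at 6 weeks and 21.5, 21.7, 12.8 and 5.51 CPM at 12 weeks (log2 fold change -3.16 ± 0.53, adjusted p = 0.00587). Without replicates 3 and 4 at 12 weeks the call for SLPI was lost, at an adjusted p of 0.0564. IGFBP5, a binding protein of insulin-like growth factors, fell from 33.0 ± 5.48 to 4.11 ± 1.78 CPM (SD, n = 4), and the matrix proteoglycan SPOCK1 from 24.4 ± 3.87 to 3.85 ± 1.05 CPM. HMCN1 (hemicentin, an extracellular matrix protein) went from 28.6 ± 3.82 to 5.37 ± 1.47 CPM. The remaining named genes were KCNAB1 (a potassium channel beta subunit, log2 fold change -2.74), CLSTN2 (a calsyntenin, -2.63), MKX (a homeobox factor of tendon, -2.57), F2RL2 (a thrombin-receptor family member, -2.34), SLC12A7 (a potassium-chloride cotransporter, -2.25) and PCDH1 (a protocadherin, -2.20). All 12 were also lower at 12 weeks in the control, with log2 fold changes between -3.93 for ALDH1A1 and -1.58 for SLC12A7.

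Genes that rose started from low levels. ITLN1, encoding the lectin intelectin (chromosome 1, 160876540 to 160885180, minus strand), measured 0.942, 0.828, 0.830 and 1.5 CPM at 6 weeks and 4.46, 5.09, 6.06 and 7.05 CPM at 12 weeks. Its log2 fold change of 2.45 ± 0.21 (adjusted p = 7.63e-07) was the largest among the higher genes that met the rule for naming. RASGRF1, an exchange factor for RAS, went from 1.38, 1.21, 2.05 and 2.23 CPM to 4.68, 5.86, 4.68 and 6.39 CPM. PKP3, a desmosomal plakophilin (chromosome 11, 392596 to 404908), was the most even of the group. It rose from 7.26, 8.01, 8.85 and 9.53 CPM to 20.5, 22.4, 20.4 and 23 CPM (log2 fold change 1.35 ± 0.09, adjusted p = 3.6e-08).

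PTGDS, a prostaglandin D synthase, rose from 3.69 ± 0.822 to 9.55 ± 2.63 CPM, and IGFBP3, another binding protein of insulin-like growth factors, from 8.73 ± 1.40 to 19.1 ± 2.42 CPM. IGFBP3 and IGFBP5 thus moved in opposite directions. TRHDE, the peptidase that inactivates thyrotropin-releasing hormone, went from 12.9 ± 2.48 to 28.6 ± 4.87 CPM. The others that met the rule were KREMEN2 (a WNT co-receptor antagonist, log2 fold change 1.36), CALB1 (a calcium-binding protein, 1.13), CPT1B (a carnitine palmitoyltransferase of fatty acid entry into mitochondria, 1.1), ARC (an activity-regulated cytoskeletal gene, 1.1), BMP8B (a bone morphogenetic protein, 1.05) and MT1F (a metallothionein, 1.05). BMP8B has a closely related copy, BMP8A, so that the split of reads between them is uncertain. The same caution holds for the metallothionein copies. All 12 rose in the control as well. ITLN1 rose by 4.64 there and by 2.45 at 1 µM, and its difference of -2.18 did not pass (adjusted p = 0.363).

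**Figure D1:**
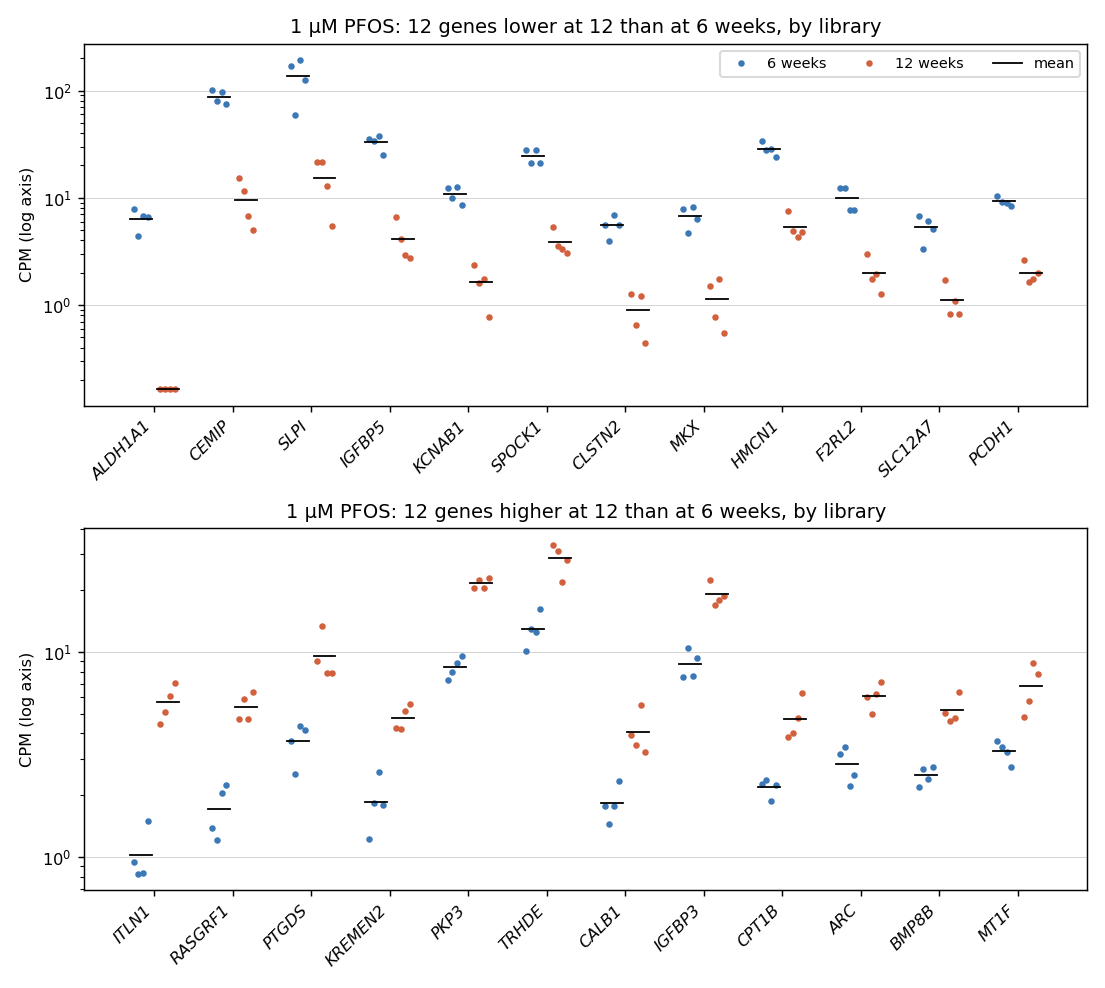
Expression in CPM on a log axis of the 12 lower and the 12 higher genes that met the naming rule, with one point per library (blue, 1 µM PFOS at 6 weeks, and red, at 12 weeks, n = 4 each) and a black line at the mean. No gene shows overlap between the times, which the naming rule required. SLPI has the widest spread, 59.5 to 191 CPM at 6 weeks.

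Groups of genes with a shared role were described by counts and medians, next to the 14.6% higher and 16.6% lower of all tested genes. Among the pathway lists, the highest shares of lower members were found for chemokines and interleukins, NRF2 targets, interferon-stimulated genes, integrins and laminins, and steroidogenesis. Metallothioneins, the cell cycle list and the integrated stress response had the highest shares of higher members. The remaining lists are given further below.

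Steroidogenic genes were mostly lower. Of 17 tested members, 9 fell, 1 rose and 7 did not pass, with a median log2 fold change of -0.22. The same 9 to 1 split was found without replicates 3 and 4 and without replicates 1 and 2 of the 12-week group. CYP11A1, which cleaves the side chain of cholesterol in the first step of steroid synthesis, measured 2.77, 1.33, 1.77 and 1.23 CPM at 6 weeks and 0.771, 0.712, 0.220 and 0.385 CPM at 12 weeks (log2 fold change -1.76 ± 0.36, adjusted p = 0.002). HSD3B1, which makes progesterone from pregnenolone (chromosome 1, 119507203 to 119515058), went from 31.3, 21.4, 32.5 and 24.9 CPM to 9.74, 7.66, 11.2 and 10.2 CPM (-1.51 ± 0.16, adjusted p = 0.000116). STAR, which carries cholesterol into mitochondria, fell from 4.49, 3.09, 4.32 and 3.73 CPM to 2.92, 2.46, 1.27 and 1.65 CPM (-0.92 ± 0.22, adjusted p = 0.0052). In each of the 3 genes the highest 12-week library lay under the lowest 6-week library. All 3 were weak next to the keratins of this line: HSD3B1 averaged 29.5 TPM and KRT8 3340 TPM at 6 weeks. FDXR, the reductase that feeds electrons to CYP11A1, was the member that rose (0.37), while its partner FDX1 was at -0.01 and did not pass. HSD17B1, which makes estradiol from estrone, was at -0.03 (adjusted p = 0.895). The lower members included the related genes AKR1C1 (-0.40, adjusted p = 0.0436), AKR1C2 (-0.98, 0.0363) and AKR1C3 (-0.93, 0.00301). Their means at 6 weeks were 9.86, 0.806 and 2.81 CPM, and the split of reads between them is uncertain. Over the alternatives the lower count of the list ran from 6 to 10. In the control 9 of 18 tested members fell and 3 rose. There HSD3B1 changed by -1.23 and CYP11A1 by -2.03, and STAR by -0.29 (adjusted p = 0.287). The difference between 1 µM and control did not pass for STAR (adjusted p = 0.388) or the other 2.

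Interferon-stimulated genes, which encode antiviral and antigen-handling proteins, were lower as a group. Of 35 tested, 21 fell, 0 rose and 14 did not pass, with a median of -0.26. Without replicates 3 and 4 at 12 weeks 14 fell and 3 rose, and without replicates 1 and 2, 24 fell and 1 rose. Without 12-week replicate 3 or 4 alone 1 rose. OASL, an oligoadenylate synthetase-like protein, measured 6.15, 4.75, 5.48 and 5.18 CPM at 6 weeks and 2.09, 2.30, 1.60 and 2.04 CPM at 12 weeks (-1.43 ± 0.15, adjusted p = 4.81e-06). IFITM1, a membrane protein that blocks viral entry, went from 26.5, 17.3, 25.5 and 21.3 CPM to 9.25, 8.54, 8.04 and 7.38 CPM (-1.45 ± 0.13). Both genes show 4 low libraries at 12 weeks, close to each other. IRF1, a transcription factor induced by interferon, fell by 0.99 on the log2 scale, and OAS1, the oligoadenylate synthetase, by 1.63. IFI44 had few reads, 54 counts at 6 weeks and 12 at 12 weeks (ratio 4.54, interval 2.4 to 9.32). Smaller changes were found for ISG15 (the ubiquitin-like modifier, -0.69), IFI6 (-0.69), MX1 (-0.82) and IFIT3 (-0.66). IRF7 and IFIH1 did not pass, at 0.07 and -0.04. In the control, 16 of 36 tested members fell and 4 rose, with a median of -0.11.

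Promoter sequences of 3 of the lower genes are shown so that a motif counted over the lower members can be seen in place. They are the 150 bases before the RefSeq start of each gene (GRCh38.p14), written 5′ to 3′ on the gene's strand, with matches to the core of the interferon-stimulated response element (GAAA, then any 2 bases, then GAAA) in capitals. ISG15 lies at chr1:1013347-1013496 (plus strand), IFI6 at chr1:27672193-27672342 (minus strand) and IFITM1 at chr11:313890-314039 (plus strand). The 2 matches of ISG15 overlap by 4 letters.
ISG15: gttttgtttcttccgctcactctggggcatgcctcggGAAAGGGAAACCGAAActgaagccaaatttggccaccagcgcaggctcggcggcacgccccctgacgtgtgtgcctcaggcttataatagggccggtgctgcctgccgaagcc
IFI6: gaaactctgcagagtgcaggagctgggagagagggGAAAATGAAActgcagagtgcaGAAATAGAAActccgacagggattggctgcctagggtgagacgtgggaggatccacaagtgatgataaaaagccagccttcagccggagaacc
IFITM1: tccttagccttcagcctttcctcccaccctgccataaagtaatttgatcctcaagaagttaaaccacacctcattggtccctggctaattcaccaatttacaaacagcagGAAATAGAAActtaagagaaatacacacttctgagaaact
This motif was chosen after the values were seen. Searched on both strands, it was present in 9 of the 17 lower list members that had an entry in the promoter table, and in 1.74% of all 35116 promoters of the same length. The list was made of interferon-stimulated genes and members that did not fall were not counted, so these shares do not bear on which members fell. OAS1 and IRF1, which also fell, held no match. A match of letters is a description of the sequence and not a bound site.

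Chemokines and interleukins showed the largest median change of the lists, -1.06. Of 15 tested members, 10 fell, 2 rose and 3 did not pass, and 8 of the 10 fell by at least 2-fold. Without replicates 3 and 4 at 12 weeks 8 fell and 1 rose, and without replicates 1 and 2, 12 fell and 2 rose. IL6, an inflammatory cytokine (chromosome 7, 22727200 to 22731998), measured 115, 120, 119 and 111 CPM at 6 weeks and 64.7, 73.8, 41.7 and 43.5 CPM at 12 weeks (-1.06 ± 0.19, adjusted p = 0.00665). The 12-week libraries of IL6 split by the pairs named above. CXCL8, a neutrophil chemokine (chromosome 4, 73740569 to 73743716), went from 18.2, 14.9, 18.1 and 16.2 CPM to 9.69, 9.14, 6.06 and 5.18 CPM (-1.17 ± 0.17, adjusted p = 0.000466). CXCL2, a related chemokine, went from 98.8, 77.5, 110 and 97.2 CPM to 41.2, 45.6, 37.4 and 36.0 CPM (-1.27 ± 0.11). The times did not overlap for any of the 3. IL1B and IL1A, the interleukin-1 cytokines, changed by -1.70 and -1.42, and CCL2, a monocyte chemokine, by -1.1. CXCL3 (-1.14) and CCL20 (-1.12) were weakly expressed, and both calls were lost under DESeq2 and without 12-week replicate 3 or 4 or 6-week replicate 1, 3 or 4, that of CXCL3 also without 12-week replicate 1 and that of CCL20 without 6-week replicate 2. LIF (-0.46), an abundant cytokine here at 443, 397, 460 and 434 CPM at 6 weeks, and IL18 (-0.56) fell less. The members that rose were CXCL16 (0.78) and IL32 (0.35).

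In the control the same list had 6 of 18 tested members lower and 3 higher, with a median of -0.45, and in the 32-library fit 1 µM had 12 lower and 2 higher with a median of -1.11. IL6 was at -0.09 in the control (adjusted p = 0.748), where its 12-week libraries held 64.6, 51.1, 115 and 99.8 CPM. CXCL8 was at -0.43 there and CXCL2 at -0.73. The differences between 1 µM and control were -0.97 for IL6 (adjusted p = 0.153), -0.74 for CXCL8 (0.281) and -0.53 for CXCL2 (0.394), so none passed. Regulators of the NF-kappaB route, which governs many of these genes, were split. Of 17, 5 fell and 3 rose, with a median of 0.01, and 8 fell without 12-week replicates 1 and 2. NFKBIZ fell by 1.01, TNFAIP3 by 0.66 and NFKBIA by 0.48 on the log2 scale, these being inhibitors or co-regulators of NF-kappaB, while the subunits NFKB1 (0.29) and NFKB2 (0.19) rose.

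The promoters of CXCL2 (chr4:74099196-74099345, minus strand), CXCL8 (chr4:73740419-73740568, plus strand) and IL6 (chr7:22727050-22727199, plus strand) are shown in the same way, with matches to GGANTTTCC, letters shared by many NF-kappaB sites, in capitals.
CXCL2: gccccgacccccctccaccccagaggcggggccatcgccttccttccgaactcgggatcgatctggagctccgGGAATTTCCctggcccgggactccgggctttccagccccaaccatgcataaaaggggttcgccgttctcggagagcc
CXCL8: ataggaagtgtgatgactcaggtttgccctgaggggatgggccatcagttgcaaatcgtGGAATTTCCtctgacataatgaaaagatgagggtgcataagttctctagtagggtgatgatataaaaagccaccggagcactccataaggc
IL6: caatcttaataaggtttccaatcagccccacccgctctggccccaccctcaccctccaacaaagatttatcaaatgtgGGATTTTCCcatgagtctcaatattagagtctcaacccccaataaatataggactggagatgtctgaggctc
Of the 7 lower list members with an entry, 4 held the motif, CXCL3 being the other, against 0.94% of all promoters. The letters were chosen after the values and the sequences were seen, so these shares are not a test and do not bear on which members fell. IL1B, IL1A and CCL20, which also fell, held no match.

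**Figure D2:**
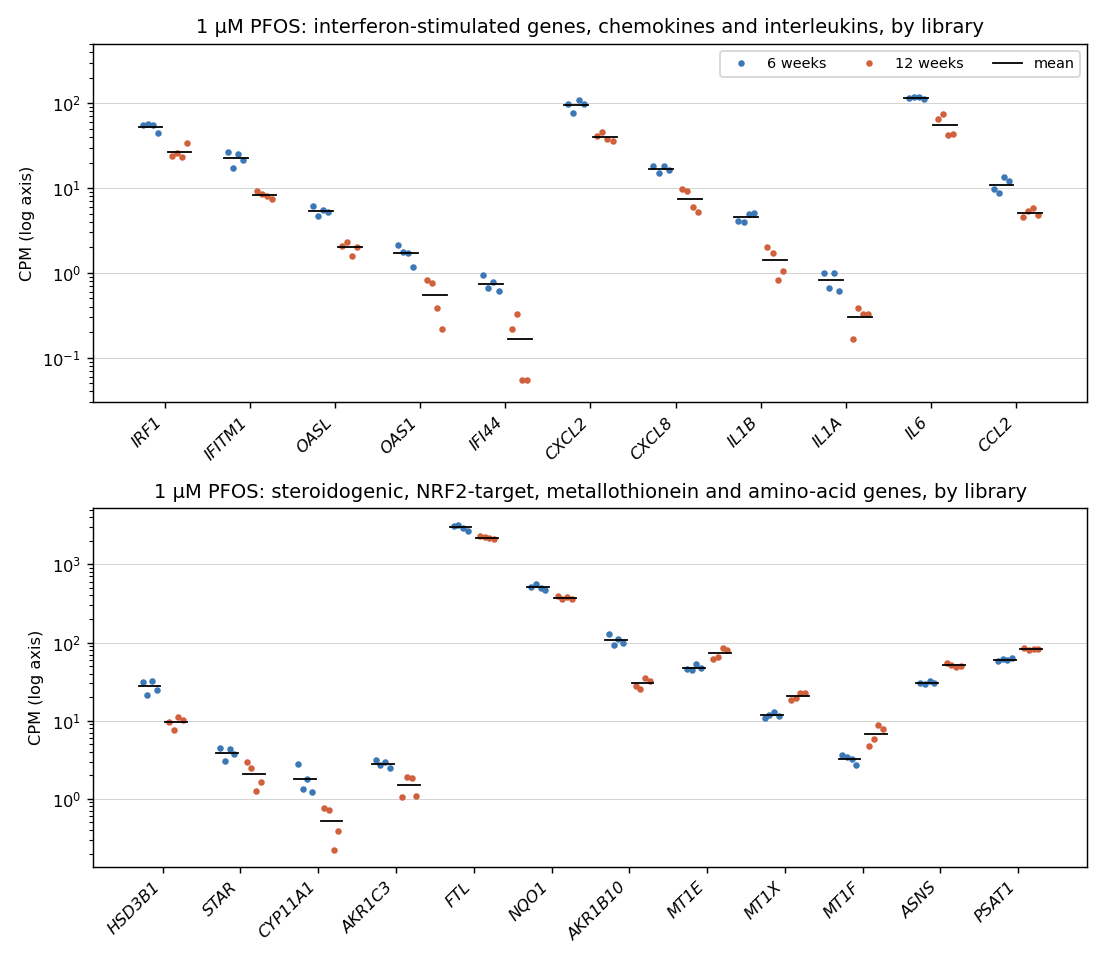
CPM on a log axis for interferon-stimulated genes, chemokines and interleukins (top) and for steroidogenic genes, NRF2 targets, metallothioneins and amino-acid enzymes (bottom) in 1 µM PFOS, with one point per library (blue, 6 weeks, and red, 12 weeks, n = 4 each) and a black line at the mean. The 12-week points of IL6 form 2 pairs, at 64.7 and 73.8 and at 41.7 and 43.5 CPM.

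NRF2 targets, the antioxidant and detoxifying genes under the transcription factor NRF2, were lower at a high share. Of 20 tested, 13 fell, 1 rose and 6 did not pass (median -0.20), with 11 and 10 lower without the respective pairs of 12-week libraries. AKR1B10, an aldo-keto reductase (chromosome 7, 134527567 to 134541412), measured 129, 93.6, 110 and 99.4 CPM at 6 weeks and 27.9, 25.5, 35 and 32.6 CPM at 12 weeks (-1.84 ± 0.13, adjusted p = 4.48e-05). It was the only DEG of the list. FTL, the ferritin light chain and one of the abundant mRNAs here, went from 3100, 3210, 2910 and 2700 CPM to 2290, 2220, 2140 and 2100 CPM (-0.45 ± 0.05, adjusted p = 1.25e-05). The change of FTL was small but each 12-week library lay under each 6-week library. NQO1 (a quinone reductase, -0.45), SRXN1 (-0.49), OSGIN1 (-0.75) and the glutathione enzymes GCLM (-0.32) and GCLC (-0.20) fell too. KEAP1, which targets NRF2 for degradation, was the member that rose (0.12), a call lost without 12-week replicate 4 or 6-week replicate 2 or 3. NFE2L2, the gene of NRF2 itself, was at -0.01, HMOX1 at -0.13 and TXNRD1 at -0.02, none of which passed. In the control 13 of 20 fell and 1 rose, with a median of -0.26.

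Genes of the AHR pathway, which senses planar aromatic compounds, had 4 of 10 tested members lower and 0 higher. Without 12-week replicates 3 and 4, 6 fell and 1 rose, and without replicates 1 and 2, 5 fell and 1 rose. CYP1B1, a P450 enzyme of estrogen and xenobiotic oxidation, measured 397, 423, 405 and 387 CPM at 6 weeks and 288, 279, 284 and 248 CPM at 12 weeks (-0.56 ± 0.05, adjusted p = 4.44e-07). In the control CYP1B1 was at -0.10 (adjusted p = 0.426), and the difference of -0.45 did not pass (adjusted p = 0.184). CYP1A1, the classical target, was under the filter, with 5, 12, 14 and 5 counts at 6 weeks and 4, 4, 3 and 5 counts at 12 weeks (ratio 2.27, interval 1.23 to 4.38, exact permutation p = 0.0286). Counts of 5 occurred at both times, so this p rests on small differences in CPM between those libraries. ARNT2, a partner of AHR-family proteins, fell by 1.64 on the log2 scale. TIPARP is described below. AHR and its repressor AHRR were at 0.01 and 0.02. F2RL3, a thrombin-receptor gene, went from 2.16, 2.76, 2.43 and 2.56 CPM to 1.32, 1.53, 1.76 and 1.71 CPM (-0.65, adjusted p = 0.00911), a call lost without replicates 1 and 2 at 12 weeks. NR4A3, an orphan nuclear receptor, did not pass (-0.32, adjusted p = 0.139). With the vial as a block NR4A3 passed, at an adjusted p of 0.00117.

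Matrix and adhesion genes were lower more often than higher. Of 24 tested integrins and laminins, 14 fell and 4 rose (median -0.25). In the control 13 of 25 fell and 1 rose, with a median of -0.21. ITGA11, a collagen-binding integrin chain, changed by -2.10, LAMA4, a laminin chain of basement membranes, by -1.11, and ITGB3 by -0.76. Of 22 collagen chains, 10 fell and 5 rose (3 rose without 12-week replicate 1 or 2 or 6-week replicate 3). Without 12-week replicates 3 and 4, 11 fell and 7 rose, and without replicates 1 and 2, 14 fell and 3 rose. COL14A1 (-2.51), COL13A1 (-1.78) and COL6A3 (-1.69) were among the lower ones. COL6A1 (0.69) and COL6A2 (0.89), which assemble with COL6A3 into collagen VI, rose. Matrix proteases and their inhibitors had 10 of 25 lower (6 without 6-week replicate 2) and 5 higher (2 without 6-week replicate 1 or 2), led by the procollagen peptidase ADAMTS14 (-2.06) and the protease inhibitor SERPINE2 (-1.61). Among EMT factors, cadherins and keratins, 7 of 20 fell and 1 rose, namely ZEB2. FN1, fibronectin, went from 2250, 2220, 2380 and 2000 CPM to 1250, 1270, 1200 and 1110 CPM (-0.88 ± 0.05). The mesenchymal cadherin CDH11 fell by 1.2 and SNAI1 by 0.81 on the log2 scale.

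The SMAD response, transcripts that follow transforming growth factor beta, had 9 of 19 lower and 2 higher, the latter between 0 and 1 without any 1 library but 6-week replicate 1. TGFBI, a matrix protein induced by this route (chromosome 5, 136028988 to 136063818), measured 407, 377, 404 and 332 CPM at 6 weeks and 182, 172, 183 and 166 CPM at 12 weeks (-1.12 ± 0.06, adjusted p = 3.02e-08). Of 19 ligands and antagonists of the family, 10 fell and 1 rose. BMP2, a bone morphogenetic protein, fell by 1.48 on the log2 scale, and follistatin, FST, by 0.33 (a call lost without 12-week replicate 1, 2 or 3 or 6-week replicate 1 or 2), while the ligand genes TGFB1, TGFB2 and TGFB3 did not pass (-0.13, 0.08 and -0.03). INHA and INHBB, inhibin subunits and products of granulosa cells, did not pass either (-0.11 and 0.18). YAP and TEAD targets were split, 7 lower and 6 higher of 23, with ANKRD1 at -1.51 and IGFBP3 at 1.12. The growth factor list had 8 of 20 lower and 2 higher (1 higher without replicate 3 of either time), the lower ones including FGF5 (-1.89) and PDGFD (-1.87). WNT genes were split, 4 lower and 5 higher of 17 (2 lower without 12-week replicate 3 or 6-week replicate 2 or 3, and under DESeq2, and 2 lower and 3 higher without 12-week replicates 3 and 4), with WNT2B at -1.63 and WNT10B at 0.60. Of 10 prostaglandin genes 4 fell and 2 rose (4 without 12-week replicates 1 and 2), PTGS1, the constitutive cyclooxygenase, at -1.35 and the receptor PTGER4 at 1.16.

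Among metabolic lists, glycolysis and hypoxia had 15 of 33 lower and 3 higher (median -0.12), with small changes such as HK1 (-0.38), HK2 (-0.49) and SLC2A3 (-0.46), the hexokinases and a glucose transporter. Cholesterol synthesis had 9 of 26 lower and 2 higher. The lower count was 4 without replicates 3 and 4 and 16 without replicates 1 and 2 of the 12-week group, and 5 without 6-week replicate 1. The higher count was 1 without 12-week replicate 2 or 4 or 6-week replicate 1, 2 or 3. Fatty acid synthesis had 3 of 17 lower (5 without 12-week or 6-week replicate 2, and 7 without 12-week replicates 1 and 2) and 0 higher (1 without 12-week replicate 4, and 2 without replicates 3 and 4), and cholesterol efflux 3 of 9 (5 without 6-week replicate 2). Fatty acid oxidation and PPAR targets had 9 of 23 lower and 4 higher, with ANGPTL4 at -2.52, PPARGC1A at -1.28 and CPT1B at 1.1, and PPARA itself at -0.01 (not passing). The higher count was 1 without 12-week replicate 2 and 2 without 6-week replicate 1, 3 or 4. Of 9 mitochondrial-genome mRNAs 1 fell, MT-ND4L.

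Metallothioneins, small proteins that bind zinc and copper, rose. Of 9 tested, 6 rose, 1 fell and 2 did not pass (median 0.61). Without replicates 3 and 4 at 12 weeks 3 rose, and without replicates 1 and 2, 6 rose. MT1X measured 10.9, 11.9, 13.1 and 11.5 CPM at 6 weeks and 18.5, 19.5, 22.9 and 22.8 CPM at 12 weeks (0.81 ± 0.09, adjusted p = 6.46e-06). MT1E went from 45.4, 44.4, 53.1 and 47.6 CPM to 61.5, 65.0, 84.4 and 80.9 CPM (0.61 ± 0.11). In both genes replicates 3 and 4 were the higher pair at 12 weeks. MT2A, the most abundant member at a mean of 1670 TPM at 6 weeks, rose by 0.27 (adjusted p = 0.0115), with overlap between the times. MT1A was the member that fell (-0.98), a call lost under DESeq2 and without 12-week replicate 1 or 3 or 6-week replicate 1 or 4. The sensor MTF1 and the zinc exporter SLC30A1 did not pass (0.11 and 0.01). The control showed 6 of 9 higher and 0 lower.

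The promoters of MT1X (chr16:56682320-56682469, plus strand) and MT2A (chr16:56608434-56608583, plus strand) are shown with matches to TGCACNC or TGCGCNC, the core of metal response elements, in capitals.
MT1X: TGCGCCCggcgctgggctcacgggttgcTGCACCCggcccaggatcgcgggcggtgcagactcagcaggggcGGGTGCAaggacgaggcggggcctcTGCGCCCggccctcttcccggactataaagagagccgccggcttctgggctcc
MT2A: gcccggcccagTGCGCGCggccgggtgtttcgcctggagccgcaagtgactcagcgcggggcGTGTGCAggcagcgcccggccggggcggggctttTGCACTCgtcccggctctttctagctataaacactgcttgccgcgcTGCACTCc
Each holds 4 matches on the 2 strands. They were the higher members with an entry, and 17.1% of all promoters held at least 1 match. These letters too were chosen after the values were seen, and the matches do not bear on which members rose.

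The integrated stress response, in which ATF4 induces amino-acid genes, had 13 of 27 members higher and 5 lower (median 0.16). Without the respective pairs of 12-week libraries 12 and 14 rose. In the control 16 of 27 rose and 4 fell, with a median of 0.22. ASNS, asparagine synthetase (chromosome 7, 97851677 to 97928441), measured 30.4, 29.8, 32.2 and 30.0 CPM at 6 weeks and 55.2, 51.7, 49.3 and 50.2 CPM at 12 weeks (0.75 ± 0.05, adjusted p = 5.45e-08). PSAT1, of serine synthesis, went from 57.9, 61.9, 59.3 and 63.1 CPM to 84.7, 80.6, 83.4 and 83.7 CPM (0.45 ± 0.04). The libraries of each time were close together for both enzymes. PYCR1 (0.41), ALDH1L2 (0.42), PHGDH (0.32) and SHMT2 (0.30) were further enzymes that rose, and ATF4 itself rose by 0.15. The members that fell were SLC7A11, CEBPB, ATF5, DDIT4 and NUPR1 (3 members without 12-week replicate 4 or 6-week replicate 1), and DDIT3 (CHOP) was at -0.12 and did not pass. Of 19 genes of the unfolded protein response 2 fell and 1 rose, but 1 fell without 12-week replicate 3 or 4 or 6-week replicate 1 or 3, 2 rose without 12-week replicate 2, and 3 rose without 12-week replicates 1 and 2. Among 22 heat shock chaperones 6 rose and 2 fell, with HSPB1 at 0.40. The lower count there was 1 without 12-week replicate 2 or 3 or 6-week replicate 1, 2 or 3, under DESeq2, and with the vial as a block.

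Genes of the cell cycle and DNA replication rose slightly. Of 42 tested, 21 rose, 0 fell and 21 did not pass, with a median of 0.13 and no change of 2-fold. The largest was E2F8, a repressor of the E2F family, at 63.8, 61.9, 66.6 and 66.2 CPM and then 78.6, 77.6, 91.4 and 89.7 CPM (0.38 ± 0.06, adjusted p = 0.000159). CDC20, which activates the anaphase-promoting complex, measured 297, 294, 298 and 303 CPM at 6 weeks and 318, 318, 394 and 408 CPM at 12 weeks (0.27 ± 0.08, adjusted p = 0.0399), and the call was lost when any 1 library except 12-week replicate 1 or 2 was left out. For E2F8 and CDC20 replicates 3 and 4 were the higher pair at 12 weeks. The proliferation marker MKI67 rose by 0.16. The count of higher members was 6 without those 2 libraries and 32 without replicates 1 and 2. It was 11 without 12-week replicate 3 and 13 without 6-week replicate 2, 3 or 4. In the control 22 of 42 members of this list rose and 0 fell, with a median of 0.14. Among CDK inhibitors, G1 cyclins and p53 targets, 4 of 25 rose and 3 fell, shares near those of all genes. Only 1 fell without 12-week replicate 2 or 6-week replicate 1, 3 or 4, and 2 rose without 6-week replicate 3. CDKN1A was at -0.07 (not passing), CDKN2A rose by 0.20 and CCND3 fell by 0.41 on the log2 scale.

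The promoters of CDC20 (chr1:43358831-43358980, plus strand) and CENPF (chr1:214603045-214603194, plus strand) are shown with the CCAAT box, in either orientation, in capitals. CENPF encodes a kinetochore protein and rose by 0.24, a call lost without 12-week replicate 4 or any 1 of the 6-week libraries.
CDC20: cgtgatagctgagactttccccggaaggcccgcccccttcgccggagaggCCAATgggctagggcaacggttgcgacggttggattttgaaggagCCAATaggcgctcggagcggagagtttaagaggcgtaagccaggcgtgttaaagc
CENPF: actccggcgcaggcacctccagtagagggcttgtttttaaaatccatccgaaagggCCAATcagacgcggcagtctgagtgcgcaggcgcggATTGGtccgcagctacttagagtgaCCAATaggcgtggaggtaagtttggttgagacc
CDC20 holds 2 matches and CENPF 3. Of the 18 higher members with an entry 10 held the box, and of all promoters 23.5% did. Members that did not rise were not counted, so these shares do not bear on which members rose. GINS2, MCM2 and TYMS held no match.

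Immediate early genes, which respond within minutes to growth signals, moved both ways. Of 22 tested, 5 rose and 5 fell. FOS measured 390, 340, 420 and 429 CPM at 6 weeks and 661, 617, 698 and 673 CPM at 12 weeks (0.74 ± 0.07, adjusted p = 1.11e-05). EGR1 went from 222, 167, 275 and 261 CPM to 476, 499, 496 and 359 CPM (0.98 ± 0.19, adjusted p = 0.00886), and its call was lost with the vial as a block and without replicates 1 and 2 at 12 weeks. FOSB rose by 0.57 and ATF3 by 0.29. IER3, an anti-apoptotic early gene, went from 220, 209, 232 and 212 CPM to 137, 138, 122 and 124 CPM (-0.75 ± 0.05, adjusted p = 3.02e-08). In the control IER3 was at -0.14 (adjusted p = 0.402), and the difference of -0.61 did not pass (0.16). In the 32-library fit 11 of 23 tested early genes rose and 0 fell in the control, and 4 rose and 3 fell at 1 µM. The difference from control passed for 1 of the 23. The feedback inhibitors of MAP kinase signaling had 4 of 16 higher and 3 lower, with SPRY1 at -1.28, DUSP2 at 0.67 and DUSP1 at 0.32.

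The change over the same weeks in the control is set beside these values next. In a fit over all 32 libraries, 17.3% of 12988 tested genes were higher and 19.3% lower at 12 weeks in the control. Its DEGs numbered 82 higher and 349 lower, against 46 and 355 at 1 µM in that fit. Of the lower DEGs 254 were common to both, which is 71.5% of those of 1 µM and 72.8% of those of the control. Common higher DEGs numbered 31, 67.4% of those of 1 µM and 37.8% of those of the control. Of the 401 DEGs at 1 µM, 396 had the same sign in the control and 5 the opposite sign. Across genes, the log2 fold changes of 1 µM and control correlated at 0.72 (Pearson), and those of 1 µM with 0.1 and 0.01 µM at 0.84 and 0.74. These are descriptions across 12988 genes, which are not independent, in cultures that came from the same vials. The cultures at lower doses had 54 higher and 444 lower DEGs at 0.1 µM and 62 and 391 at 0.01 µM.

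**Figure D3:**
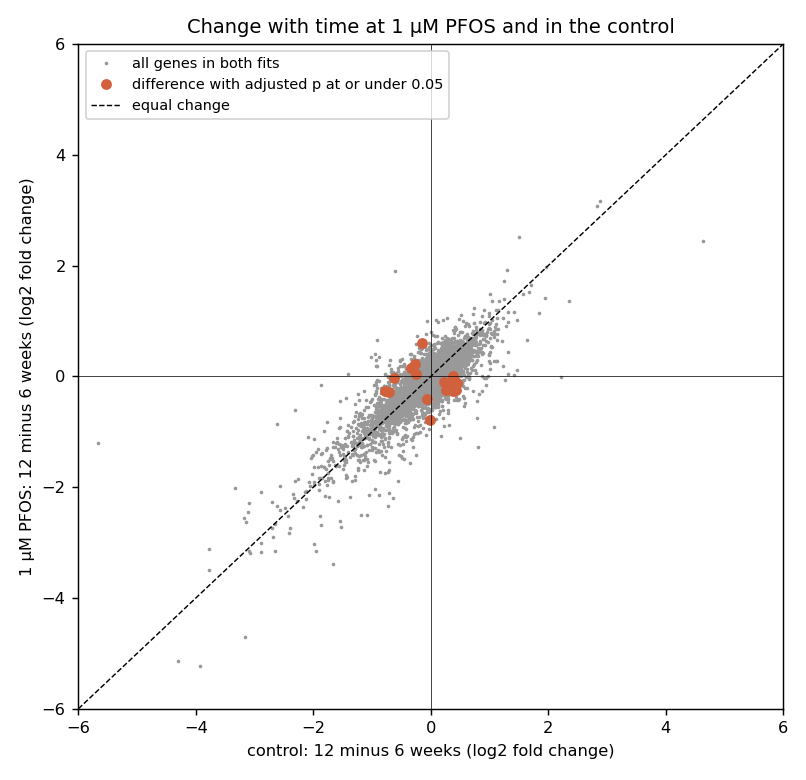
Log2 fold change from 6 to 12 weeks in the control (horizontal) and at 1 µM PFOS (vertical), from the fit over all 32 libraries, with one grey point per gene (12650 genes, with 5 outside the axes). The dashed line marks equal change, and red points are the 16 genes whose change differed at an adjusted p of 0.05 or less, all within 1 log2 unit of zero on both axes.

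The difference itself was tested as an interaction. The change with time at 1 µM differed from that of the control for 16 of 12988 genes (0.123%, edgeR quasi-likelihood test over 32 libraries), 7 in the higher and 9 in the lower direction, and 0 of them by 2-fold. With the vial as a block 26 genes passed, the 16 among them. DESeq2 called 76, of which 11 were among the 16. Control replicate 3 at 12 weeks stood apart, with 919 counts of the 6 liver transcripts against 81 to 115 in the other control libraries at 12 weeks. At 6 weeks the same sum was 0 or 1 in the control and at 0.01 µM, but 89 to 141 at 0.1 µM and 88 to 115 at 1 µM. The share of mitochondrial-genome counts at 6 weeks was 4.80% to 5.04% in the control and 5.56% to 6.77% at 1 µM. The 6-week libraries of control and 1 µM thus differed in these measures too, and their part in the interaction was not tested. Without control replicate 3 at 12 weeks 5 genes passed, and MAFF alone of the 16. Without vial 4 in all groups 1 gene passed, without vial 3, 4 genes passed, and none of these was among the 16. Without vial 2 there were 5 genes, 4 of the 16, and without vial 1 there were 25, 10 of the 16. The liver transcripts themselves did not pass (ALB, difference -7.49, adjusted p = 0.0747).

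MAFF, a small MAF transcription factor (chromosome 22, 38201994 to 38216511), had the smallest adjusted p. At 1 µM it measured 113, 104, 110 and 111 CPM at 6 weeks and 86.7, 94.8, 93.9 and 91.2 CPM at 12 weeks, while the control had 136, 112, 117 and 112 CPM and then 151, 140, 159 and 163 CPM. MAFF thus fell at 1 µM and rose in the control, a difference of -0.64 ± 0.10 (adjusted p = 0.00226). It did not pass without vial 3 or vial 4. TIPARP, an AHR-induced ADP-ribosyltransferase (chromosome 3, 156674590 to 156706770), measured 110, 121, 120 and 107 CPM and then 100, 98.7, 96.1 and 91.4 CPM at 1 µM. In the control it went from 154, 139, 144 and 121 CPM to 184, 154, 215 and 191 CPM. The difference was -0.68 ± 0.14 (adjusted p = 0.0309). Its call was lost without vial 2, 3 or 4, without control replicate 3 at 12 weeks, and without the filter on low counts. The fall at 1 µM alone had an adjusted p of 0.000651 in the 8 libraries and 0.0511 in the 32-library fit.

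PHLDA1, a growth-factor induced gene, fell at 1 µM from 54.9 ± 2.60 to 31.8 ± 4.62 CPM and was 43.0 ± 4.85 and 42.0 ± 8.32 CPM in the control (difference -0.77, adjusted p = 0.0266). ERRFI1, a feedback inhibitor of the EGF receptor, differed by -0.35, KLF6 (a zinc-finger early gene) by -0.34, CITED2 (a transcriptional coregulator) by -0.36, CHMP1B (an ESCRT component) by -0.52, AVPI1 by -0.43 and DDIT3 by -0.57. CITED2, KLF6, AVPI1 and DDIT3 rose in the control, by 0.37, 0.23, 0.32 and 0.45, and did not pass at 1 µM in the 32-library fit. In the other direction, LENG8 fell less at 1 µM, from 276 ± 8.32 to 231 ± 9.39 CPM, than in the control, from 261 ± 17.2 to 150 ± 14.7 CPM (difference 0.52, adjusted p = 0.0249). TTLL3, a tubulin glycylase, rose at 1 µM from 8.06 ± 1.15 to 12.3 ± 0.790 CPM and was 9.46 ± 0.578 and 8.42 ± 1.36 CPM in the control (difference 0.75, adjusted p = 0.0266). EME2 (a subunit of a structure-specific endonuclease, 0.60), ACAP3 (a GTPase-activating protein for ARF6, 0.50), TEPSIN (an adaptor of vesicle coats, 0.50), ADARB1 (an RNA-editing adenosine deaminase, 0.43) and INTS3 (an Integrator subunit, 0.30) completed the 16.

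**Figure D4:**
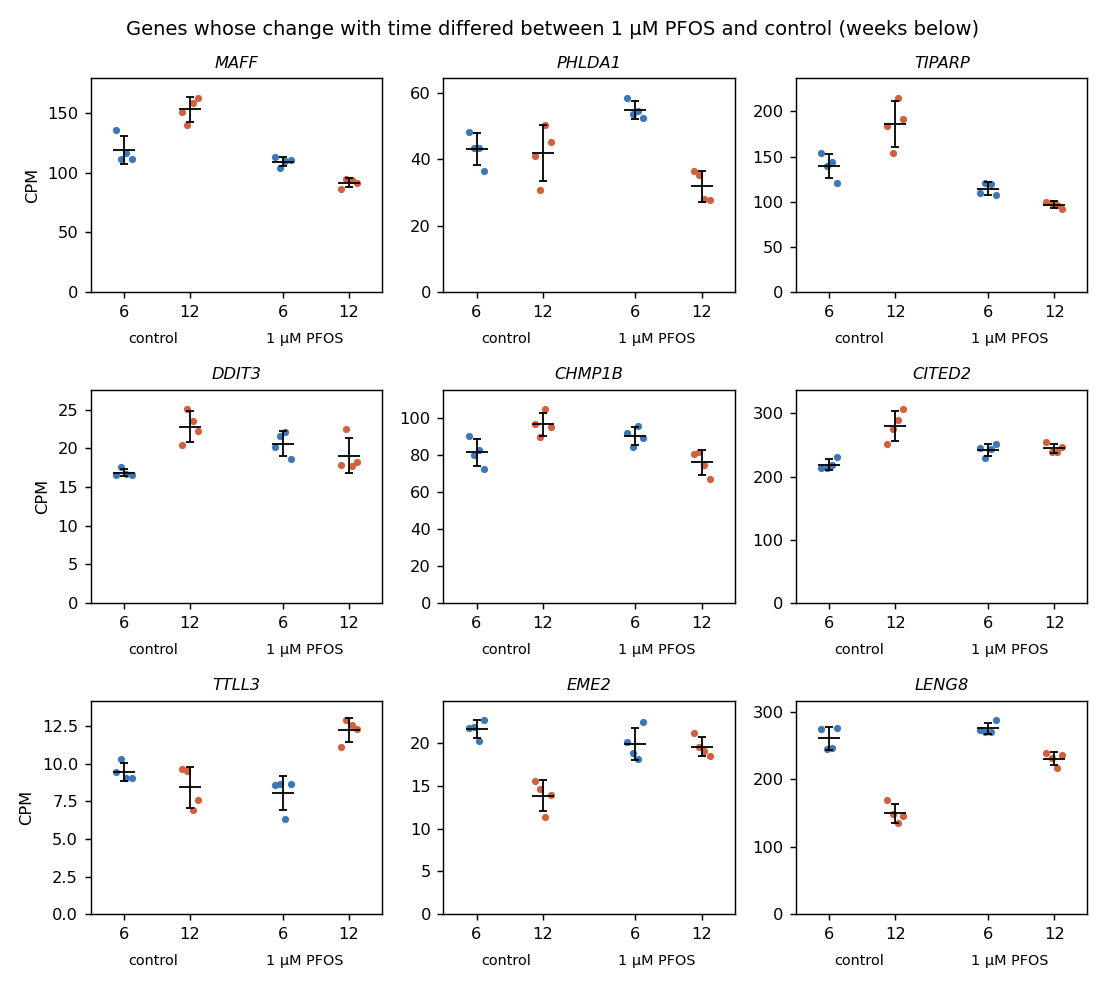
CPM (axis from 0) of 9 of the 16 genes whose change with time differed between 1 µM PFOS and control, by group, with one point per library (blue, 6 weeks, and red, 12 weeks, n = 4) and black marks for mean ± SD. MAFF and TIPARP rose in the control and fell at 1 µM, and LENG8 fell from 261 to 150 CPM in the control and from 276 to 231 CPM at 1 µM.

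The change with time at 1 µM was not distinguished from that at 0.1 µM. Of 12988 genes, 0 passed (0%, edgeR quasi-likelihood test), 946 had an unadjusted p under 0.05, and the lowest adjusted p was 0.0778. DESeq2 called 5. PHLDA1 changed by -0.74 at 0.1 µM and by -0.28 at 0.01 µM, next to -0.79 at 1 µM in the same fit. IL6 was at -1.21 and -0.75 in those cultures and STAR at -1.15 and -0.95, next to -1.06 and -0.92 at 1 µM.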

How the data were processed

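Per the labels and the study's methods, HGrC1 cells of 4 vials were grown in vehicle or in PFOS at 0.01 µM, 0.1 µM or 1 µM. They were sampled at 6 and 12 weeks. The authors deposited expected counts per gene without normalization, and TPM, which were used here for levels between genes. The submitters' processing notes name HISAT2 2.0.4, Bowtie2 2.2.5, RSEM 1.2.8 and GRCh38.p14. Columns were matched to samples by name, with 0 left unmapped, and 18583 of 47137 gene entries had values. The deposited FPKM and normalized values were not used.

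Counts were rounded and tested in edgeR 4.0.16 (R 4.3.3, limma 3.58.1) with TMM, the default filter on low counts, a robust quasi-likelihood fit, two-sided tests and Benjamini-Hochberg adjustment. The 8 libraries at 1 µM gave the change with time, and all 32 gave the differences from other groups. DESeq2 1.42.0 was an alternative. Total counts in the 8 libraries, 17944140 to 18270674, limit weak genes most, and a count of 0 allows up to 3. On simulated counts the fit of 8 libraries recovered 199 of 199 tested genes that had been changed, with 12 false calls over 12655. The fit of 32 recovered 189 of 199, with 12 false calls over 12988. Every simulated gene had the same spread between libraries, and the changed genes moved by 2-fold or 4-fold. Recovery was not tested for spreads that differ between genes, as they do here. Nor was it tested under the split of the 12-week libraries into pairs, or for changes as small as most found here. Single values were tested by exact permutation of log2(CPM + 1) means. Promoters came from RefSeq, read in Python 3.11.15 with pandas 2.3.3, numpy 2.4.6, scipy 1.17.1 and matplotlib 3.10.9.

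Genes were named if they were among the 12 largest DEGs in each direction averaging 50 counts or more and without overlap between times, among up to 6 passing members of a list, among the genes with the smallest adjusted p in the difference from control, or set by name. The members and lists were chosen with earlier results of these data known. Same-numbered libraries were taken to share a vial, from the replicate numbers in the labels and the vials described in the study's methods. The deviations of the 1 µM libraries from their group means correlated at 0.0095 to 0.115 between same-numbered libraries of the 2 times, over 0.1 in 2 of 4 pairs. No 2 libraries were identical among the 12 pairs compared within the groups, which differed from counting noise by 2.79 to 9.66 times (chi-square over its degrees of freedom). The p-values measure the spread between cultures of 1 line.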

Additional observations from a re-analysis of the deposited data

Results flagged for a closer look

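A library stood far from the other 3 of its group in 19 of 430 groups of named genes (4.42%), close to the 1 in 20 that chance gives. At 6 weeks, in CPM, these were ITLN1 in replicate 4 (1.5), GDF6 in replicate 2 (1.82), HK1 in replicate 4 (208), MT-ND4L in replicate 2 (823), PTGER4 in replicate 4 (1.89), PTGIS in replicate 2 (555) and TTLL3 in replicate 3 (6.34). At 12 weeks they were EGR1 (359) and LAMA4 (16.2) in replicate 4, KDR in replicate 3 (6.22), and WNT2B (13.3) and WNT5A (0.936) in replicate 1. In replicate 2 at 12 weeks they were TNFAIP8 (24.8), LTBP2 (16), ALDOC (3.67), ZP3 (26.5), DDIT3 (22.5), AVPI1 (48.1) and ALDH1A1 (0.164). ALDH1A1 had 3 counts in each of the 4 libraries, so that its CPM values differ by library size.

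The change with time differed between 1 µM and control, by the interaction test, for 16 genes. On the log2 scale, 1 µM minus control, the differences were -0.64 for MAFF, -0.34 for KLF6, -0.52 for CHMP1B, -0.36 for CITED2, -0.77 for PHLDA1, -0.57 for DDIT3, -0.35 for ERRFI1, -0.43 for AVPI1 and -0.68 for TIPARP. They were 0.52 for LENG8, 0.50 for ACAP3, 0.75 for TTLL3, 0.60 for EME2, 0.30 for INTS3, 0.43 for ADARB1 and 0.50 for TEPSIN. Of the 16, 0 passed without vial 3 and 0 without vial 4. MAFF alone passed without control replicate 3 at 12 weeks.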

How the results depend on the processing

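DEGs between 6 and 12 weeks at 1 µM numbered 36 higher and 306 lower. Without the filter on low counts there were 61 higher, and with at least 10 counts in every library 22 higher and 189 lower, fewer genes being tested. Leaving out 1 library gave 33 to 50 higher and 275 to 355 lower. Leaving out 12-week replicates 1 and 2 gave 54 higher and 427 lower, and leaving out replicates 3 and 4 gave 46 and 277. Of the 24 genes named for the largest changes, 1 (SLPI) lost its call in any of the 17 alternatives where the gene was tested. These genes were chosen in the same libraries for large changes without overlap, so that result was largely set by the choice. Without 12-week replicates 3 and 4, 23 of all 36 higher and 231 of all 306 lower DEGs were kept. ALDH1A1 was not tested where every library had to hold at least 10 counts. The vial as a replicate block gave 36 higher and 307 lower. For the difference from control, 16 genes passed, 76 under DESeq2, 24 with 16 libraries and 26 with the vial as a block, which keeps the pairing by vial. Without 1 vial the count ran from 1 to 25, and without control replicate 3 at 12 weeks it was 5. For the difference from 0.1 µM, 0 genes passed, 2 without the filter, 5 under DESeq2, 1 with 16 libraries and 0 to 1 without 1 vial. Among list counts the block moved lower heat shock chaperones from 2 to 1, higher stromal markers from 1 to 2, and lower cell cycle and higher interferon members from 0 to 1, and no others by over 1.5 times. Among genes not called at 1 µM, CITED2 changed sign without 12-week replicate 1 (-0.01) or 6-week replicate 2 (-0.02), and EME2 without 6-week replicate 4 (0.04) or 12-week replicates 3 and 4 (0.03), its values running from -0.08 to 0.04 over left-out libraries. The cause was not tested. Depth limits genes near 1 CPM.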
